A study of Mus musculus with 10 samples.

Results

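A set of 10 genes of the hepatic extracellular matrix was followed here. They were taken by name for their roles, with earlier results of these data known. They are 3 lysyl oxidases that cross-link the matrix (Lox, Loxl1 and Loxl2), 4 matrix metalloproteinases that cut it (Mmp2, Mmp12, Mmp13 and Mmp14), and 3 tissue inhibitors of metalloproteinases (Timp1, Timp2 and Timp3). All 10 were found by symbol among the 27179 genes of the count table and all 10 passed the filter on low counts. The libraries came from whole liver of male C57BL/6 mice, 5 Lpcat3f/f mice without Cre (control) and 5 Lpcat3f/f Albumin-Cre mice (LKO). Both groups carried the floxed alleles and both were fed a diet that causes nonalcoholic steatohepatitis (NASH) for 12 weeks, so no mouse on another diet stands beside them. The labels state no age. The albumin promoter drives Cre in hepatocytes. Which other liver cells, such as those of bile ducts, keep the gene was not measured here. Lpcat3 encodes an enzyme that places polyunsaturated fatty acids into membrane phospholipids.

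Lysyl oxidases are secreted copper-dependent enzymes that oxidise lysines of collagen and elastin, after which the chains join into covalent cross-links that make scar tissue stiff and hard to digest. Metalloproteinases are zinc enzymes made as inactive precursors. TIMPs block them by binding the active site, and TIMP2 also takes part in the activation of pro-MMP2 by the membrane-bound MMP14. In injured liver these genes are known mainly from stellate cells, portal fibroblasts and macrophages rather than from hepatocytes. In bulk tissue, more cells of a type and more RNA per cell cannot be told apart, and this holds for every value below.

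Libraries held 26914124 to 46727182 counts. Levels are given in CPM, counts scaled to library size by the trimmed mean of M values (TMM). Lpcat3, the deleted gene, had 94.1 to 123.9 CPM in control and 25.5 to 38.5 CPM in LKO, with the control 4 library at 95.7 CPM. On the first principal component of all genes control 4 stood at 30.2, the other controls at -52.7 to -30.1 and LKO libraries at -8.03 to 82.3, LKO 3 being the highest. The library titles also hold 1 of the codes A54, A55 and A67, with no stated meaning. A54 holds control 1, LKO 1 and LKO 2. A55 holds controls alone and A67 LKO alone, so outside A54 the code and the genotype cannot be told apart. A54 differences below are the log2 ratio of the mean of 2 LKO libraries to 1 control, with no test.

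Mean levels of all 10 genes were higher in LKO than in control, and 49.5% of all tested genes had a log2 fold change above 0. Yet 0 of 10 passed the quasi-likelihood test of edgeR at a Benjamini-Hochberg adjusted p under 0.05, which 0.0657% of all genes passed in either direction. Their log2 fold changes, LKO minus control, ran from 0.56 (Timp3) to 2.05 (Timp1) with a median of 1.30, beside a median of -0.00 over all 15226 tested genes. A log2 fold change of at least 1 was reached by 6 of the 10 and by 4.91% of all genes. At an unadjusted p under 0.05 there were 8 of 10, all higher in LKO, against 12.8% of all genes as higher and 9.5% as lower. Because the set was chosen with earlier results known, its shares are not those of a set picked blind to these data. DESeq2, which gave Mmp12 no p, passed 2 of 10 (4.16% of all genes were called as higher) and limma voom with sample quality weights 7 of 10 (10% of all genes). For 0 of 10 did the ranges of the groups stand apart, as they did for 1.72% of genes in the higher and 2.23% in the lower direction.

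The highest library of a group was nearly always the same. Control 4 was the highest control for 9 of the 10 genes, all but Timp3, and LKO 3 was the highest LKO library for 9 of the 10, all but Mmp13. Each was also the highest of its group on the first principal component of all genes, at 30.2 and 82.3. Both libraries thus stood apart beyond these 10 genes. How many of all genes had either library as the highest of its group was not counted. For all but Timp3, all 5 LKO libraries lay above each of the controls other than control 4. The share of all genes that did so was not counted. Without control 4, 8 of 10 genes passed as higher in LKO, with Timp2 and Timp3 short of the threshold, against 10.2% of all genes called as higher in that fit. The median of the 10 log2 fold changes was then 2.01. Without LKO 3 it was 0.76 and 0 of 10 passed, as did 0.0719% of all genes in either direction. At an unadjusted p under 0.05 there were 2 of 10 (Loxl2 and Timp3), against 8.84% of all genes as higher. Leaving out both libraries gave 9 of 10 (9.87% of all genes as higher), all but Timp3. Both libraries were singled out with these same values known. Leaving out the highest control raises the fold change of a gene by construction, and leaving out the highest LKO library lowers it. The fits without them, here and below, are therefore descriptions and no independent support for a difference.

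**Figure D1:**
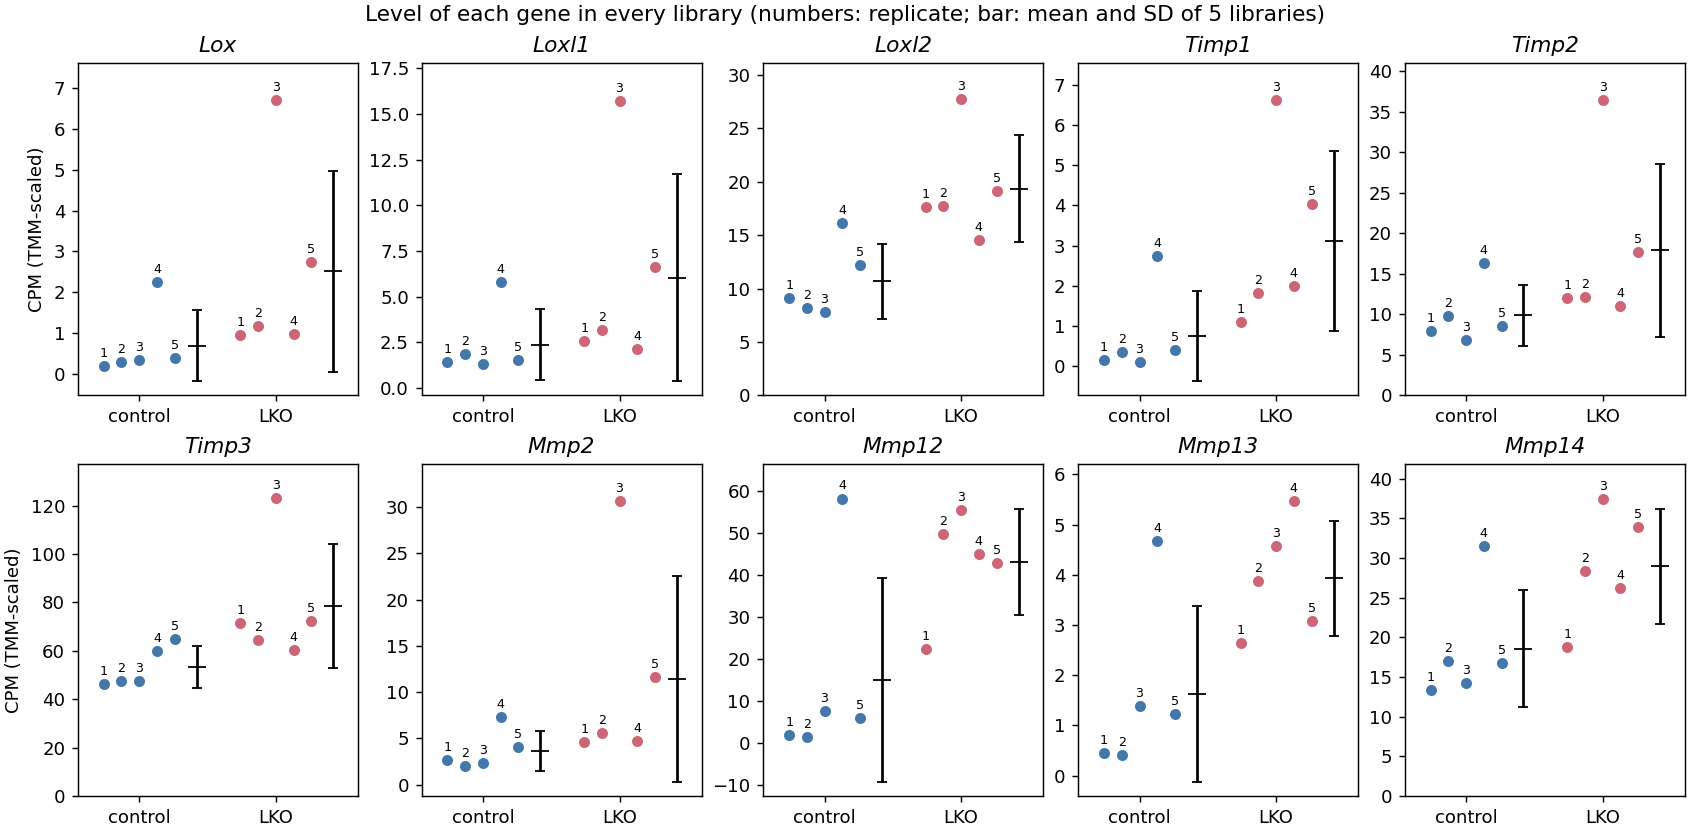
Level of each gene, in CPM, in 5 control (blue) and 5 LKO (red) libraries, with the replicate number over each point and the mean and SD of 5 libraries beside each group. Control 4 lies inside or above the LKO range in 9 of the panels and LKO 3 is the highest red point in 9 of them.

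Lox encodes the founding lysyl oxidase of collagen and elastin. It had 0.189, 0.281, 0.337, 2.26 and 0.396 CPM in controls 1 to 5, and 0.942, 1.17, 6.71, 0.967 and 2.75 CPM in LKO 1 to 5. Control 4 was above 3 of the LKO libraries, and LKO 3 was 5.72 times the LKO median. The means were 0.692 ± 0.878 and 2.51 ± 2.47 CPM (SD, n = 5), a log2 fold change of 1.85 (SE 0.77, edgeR adjusted p = 0.196). It was 3.02 without control 4 (edgeR adjusted p = 0.0184) and 1.06 without LKO 3 (edgeR adjusted p = 0.427), and the A54 difference was 2.49. Lox was read from 5 to 251 counts per library, so its low control values are imprecise.

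Loxl1 encodes the family member tied to elastic fibre assembly. Its levels were 1.40, 1.83, 1.32, 5.80 and 1.51 CPM in controls 1 to 5 and 2.58, 3.17, 15.7, 2.14 and 6.59 CPM in LKO 1 to 5. The pattern was that of Lox, with control 4 above 3 LKO libraries. The log2 fold change of 1.35 (SE 0.62, edgeR adjusted p = 0.224) had a 95% interval from -0.01 to 2.70. Without control 4 it was 1.99 (edgeR adjusted p = 0.0431), without LKO 3 it was 0.60 (edgeR adjusted p = 0.545), and the A54 difference was 1.04.

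Loxl2 encodes a lysyl oxidase with scavenger receptor domains that cross-links basement membrane collagen IV. It differed most evenly, at 9.10, 8.18, 7.76, 16.1 and 12.2 CPM in controls 1 to 5 and 17.6, 17.8, 27.8, 14.5 and 19.1 CPM in LKO 1 to 5. Of the LKO libraries 4 lay above every control, and LKO 4 lay under control 4. Loxl2 had the smallest adjusted p of the 10, with a log2 fold change of 0.86 (SE 0.23, edgeR adjusted p = 0.106) and a 95% interval from 0.36 to 1.35. The value was 1.05 without control 4 (edgeR adjusted p = 0.0109), 0.68 without LKO 3 (edgeR adjusted p = 0.16) and 0.96 within A54. DESeq2 passed it (adjusted p = 0.0135).

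Timp1 encodes the inducible soluble inhibitor of the family, a widely used serum marker of liver fibrosis. It was almost unread in most controls, with 0.151, 0.351, 0.101, 2.74 and 0.396 CPM in controls 1 to 5 and 1.10, 1.83, 6.63, 1.99 and 4.04 CPM in LKO 1 to 5. Every LKO library lay above controls 1, 2, 3 and 5, and control 4 lay above LKO 1, LKO 2 and LKO 4. In control 3 Timp1 had 3 counts, which is the floor used here for a gene with 0 counts. Its log2 fold change of 2.05 (SE 0.80, edgeR adjusted p = 0.176) was the highest of the 10 genes. It was 3.58 without control 4 (edgeR adjusted p = 0.00912), 1.57 without LKO 3 (edgeR adjusted p = 0.328) and 3.28 within A54.

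Timp2 encodes the partner of MMP14 in pro-MMP2 activation. It had 7.93, 9.80, 6.88, 16.3 and 8.52 CPM in controls 1 to 5 and 12.0, 12.1, 36.4, 11.1 and 17.7 CPM in LKO 1 to 5. LKO 1, LKO 2 and LKO 4 lay between control 2 and control 4, and LKO 3 was 3.01 times the LKO median. The log2 fold change was 0.85 (SE 0.35, edgeR adjusted p = 0.194), 1.11 without control 4 (edgeR adjusted p = 0.0525) and 0.41 without LKO 3 (edgeR adjusted p = 0.386). Within A54 it was 0.61.

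Timp3 encodes the inhibitor that is held in the matrix itself. Its levels were 46.4, 47.3, 47.5, 59.8 and 64.9 CPM in controls 1 to 5 and 71.6, 64.3, 123, 60.4 and 72.4 CPM in LKO 1 to 5. Here control 5, not control 4, was the highest control, and LKO 2 and LKO 4 lay under it. The log2 fold change of 0.56 (SE 0.19, edgeR adjusted p = 0.148) was the smallest of the 10. It was 0.60 without control 4 (edgeR adjusted p = 0.0724), 0.33 without LKO 3 (edgeR adjusted p = 0.217) and 0.55 within A54.

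**Figure D2:**
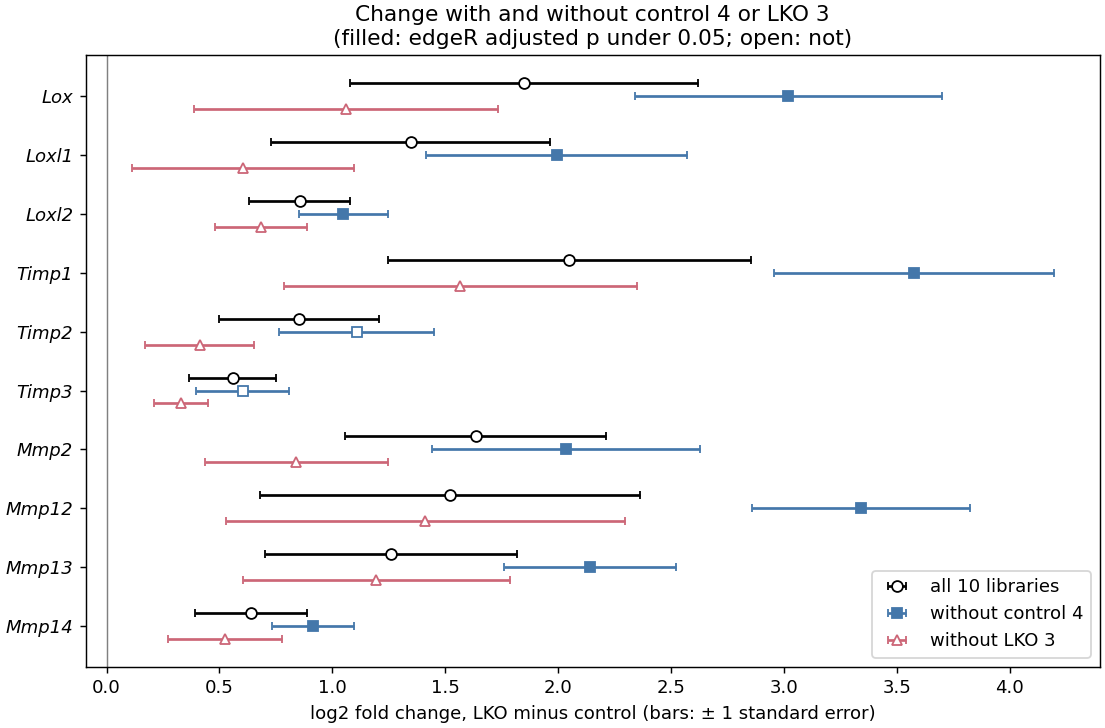
Log2 fold change of each gene (LKO minus control, horizontal axis, bars ± 1 standard error) with all 10 libraries (black), without control 4 (blue) and without LKO 3 (red), where filled symbols mark an edgeR adjusted p under 0.05. All symbols lie above 0, and the filled ones are the 8 genes that passed without control 4.

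Mmp2 encodes gelatinase A, which cuts denatured collagen and collagen IV. It had 2.64, 2.04, 2.29, 7.29 and 4.03 CPM in controls 1 to 5 and 4.55, 5.57, 30.6, 4.68 and 11.6 CPM in LKO 1 to 5. LKO 3 was 5.49 times the LKO median, while LKO 1, LKO 2 and LKO 4 lay under control 4. The log2 fold change was 1.63 (SE 0.58, edgeR adjusted p = 0.155), 2.04 without control 4 (edgeR adjusted p = 0.0435) and 0.84 without LKO 3 (edgeR adjusted p = 0.317). Within A54 it was 0.94, and DESeq2 passed the gene (adjusted p = 0.0387).

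Mmp14 encodes the membrane-bound collagenase that activates pro-MMP2. It had 13.4, 17.0, 14.2, 31.5 and 16.7 CPM in controls 1 to 5 and 18.7, 28.4, 37.5, 26.3 and 33.9 CPM in LKO 1 to 5. LKO 3 and LKO 5 lay above control 4, and LKO 1 stood close to control 2. The log2 fold change was 0.64 (SE 0.25, edgeR adjusted p = 0.175), 0.91 without control 4 (edgeR adjusted p = 0.0129), 0.52 without LKO 3 (edgeR adjusted p = 0.314) and 0.82 within A54.

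Mmp12 encodes macrophage elastase. It had 1.77, 1.40, 7.66, 58.3 and 5.96 CPM in controls 1 to 5 and 22.4, 49.9, 55.6, 45.01 and 42.9 CPM in LKO 1 to 5. Control 4 held the highest value of all 10 libraries, above every LKO library, while the other controls had 7.66 CPM or less. The group means of 15.0 ± 24.3 and 43.2 ± 12.6 CPM (SD, n = 5) gave a log2 fold change of 1.52 (SE 0.84, edgeR adjusted p = 0.297), the weakest adjusted p of the 10. Without control 4 it was 3.34 (SE 0.48, edgeR adjusted p = 0.00519), the smallest adjusted p of the 10 in that fit. It was 1.41 without LKO 3 (edgeR adjusted p = 0.42) and 4.35 within A54.

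Mmp13 encodes the main interstitial collagenase of rodents. It had 0.453, 0.421, 1.38, 4.67 and 1.23 CPM in controls 1 to 5 and 2.64, 3.88, 4.57, 5.47 and 3.07 CPM in LKO 1 to 5. Control 4 lay above all LKO libraries but LKO 4, and LKO 3 did not stand apart. The log2 fold change was 1.26 (SE 0.56, edgeR adjusted p = 0.217), 2.14 without control 4 (edgeR adjusted p = 0.00979), 1.19 without LKO 3 (edgeR adjusted p = 0.325) and 2.85 within A54.

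The genes thus took different shapes across the LKO libraries. The ratio of LKO 3 to the LKO median was 5.72 in Lox, 5.49 in Mmp2, 4.96 in Loxl1, 3.34 in Timp1 and 3.01 in Timp2. It was 1.72 in Timp3, 1.56 in Loxl2, 1.32 in Mmp14, 1.24 in Mmp12 and 1.18 in Mmp13. The likeness of 2 genes was measured as the mean absolute difference, over the 10 libraries, between their log2 CPM values after each was centred on its own mean. By that measure the member nearest to Mmp2 was Loxl1 (0.23) and the member nearest to Timp3 was Loxl2 (0.23). These distances are descriptions of 10 shared libraries.

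Of 12959 named genes with a mean of at least 1 CPM, those with the most similar patterns differed by member. Nearest to Lox were St14, which encodes the membrane protease matriptase (0.19), and Col1a1, of collagen I (0.21). Nearest to Loxl1 were Peg10 (0.17) and Mrc2, which encodes a collagen uptake receptor (0.18). Mmp2 lay nearest to Col6a3, of collagen VI (0.15), and Olfml3 (0.18). Timp2 lay nearest to Pdgfrb, the platelet-derived growth factor receptor of mesenchymal cells (0.11), and Cavin1, of caveolae (0.11). For Loxl2 they were Csrp1 (0.09) and the ceramide kinase gene Cerk (0.10), for Timp3 Ctnnal1 (0.10) and Dzip3 (0.10), and for Mmp14 Frmd6 (0.07) and Jpt1 (0.09). Mmp12 was nearest to Aqp7, which encodes a glycerol channel (0.48), and to Trem2, a receptor of lipid-associated macrophages (0.50). Mmp13 was nearest to Ckap2l (0.27) and Uhrf1 (0.33), both of dividing cells. Timp1 was nearest to Dhrs9 (0.39) and to Lox (0.42). The distances grow with the spread of the member, so they rank genes for 1 member and do not compare members.

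**Figure D3:**
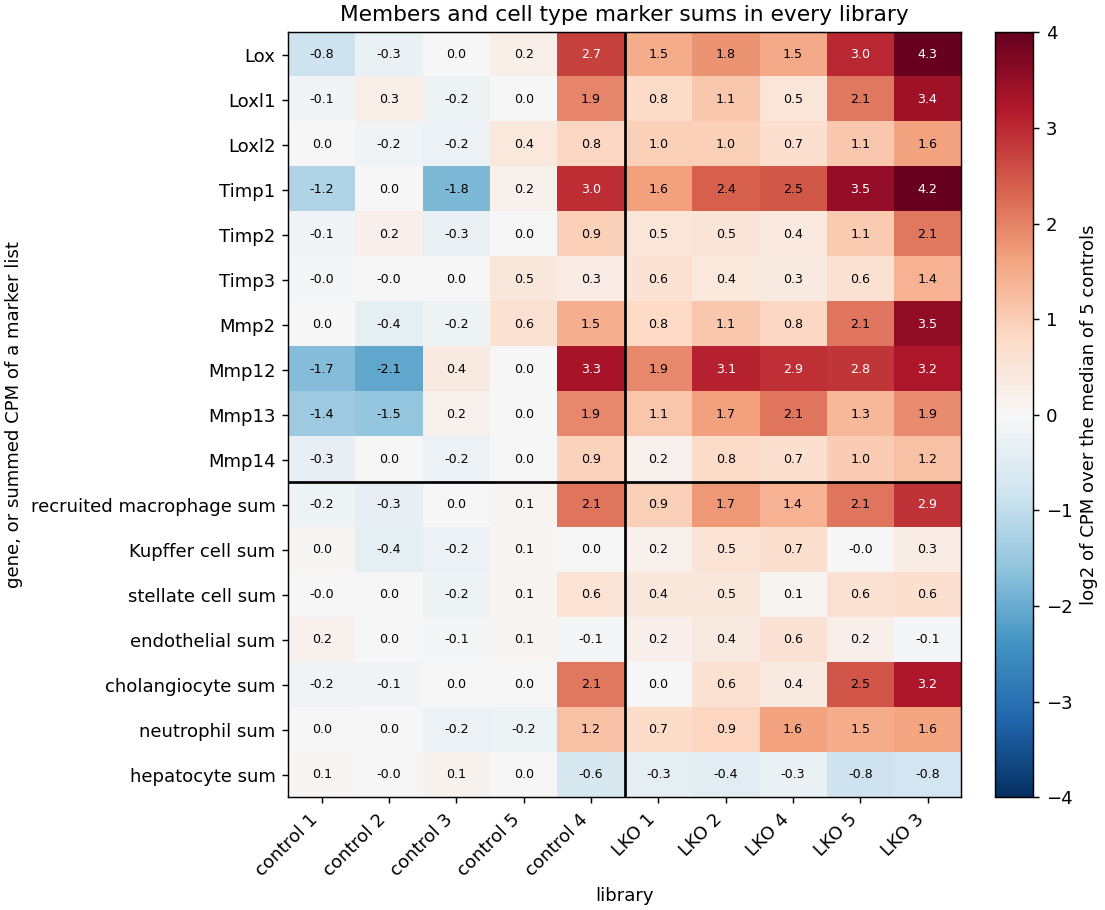
Log2 of CPM over the median of the 5 controls in each library (columns, control 4 and LKO 3 placed last in their groups) for the 10 genes (upper rows) and the summed CPM of each cell type marker list (lower rows). Control 4 resembles the LKO columns in most upper rows and in the recruited macrophage sum, while its cholangiocyte sum is near those of LKO 5 and LKO 3 and above those of LKO 1, LKO 2 and LKO 4.

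Marker sums of some other liver cells were high in the same libraries as these genes, and others were not. Counts called in each list stand beside those over all genes. Of 15226 tested genes DESeq2 called 634 as higher and 552 as lower, and voom 1530 and 930. Without control 4 edgeR called 1568 and 728 of 15327. An unadjusted p under 0.05 by edgeR held for 12.8% of all genes as higher and 9.5% as lower. The summed CPM of 12 markers of recruited and lipid-associated macrophages was 88.4 to 120 in controls 1, 2, 3 and 5, 496 in control 4, and 216 (LKO 1) to 837 (LKO 3) in LKO. All 12 were tested, 12 had a higher mean in LKO and none was at 0 in any library. By edgeR 0 of 12 passed, with 3 higher at an unadjusted p under 0.05, 2 by DESeq2 and 10 by voom. Without control 4, 11 of 12 passed by edgeR as higher and their median log2 fold change was 2.19 in place of 1.19. Gpnmb, a marker of lipid-laden macrophages, had 0.604, 0.597, 6.65, 95.9 and 3.70 CPM in controls 1 to 5 and 35.3, 89.5, 92.0, 30.5 and 56.2 CPM in LKO 1 to 5. As with Mmp12, control 4 was the highest library of all for Gpnmb. The sum of the 12 markers was instead highest in LKO 3. The Kupffer cell sum of 9 markers was 259 to 353 CPM in control, with control 4 at 337, and 335 to 533 CPM in LKO. Of these 9, 0 passed by edgeR and 5 were higher at an unadjusted p under 0.05. DESeq2 passed 4, voom 5 and edgeR without control 4 called 4, all higher.

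The sum of 10 stellate cell and myofibroblast markers was 403 to 492 CPM in the other controls and 679 in control 4. In LKO it was 495 (LKO 4) to 721 (LKO 3), with 9 of 10 markers higher on average and none at 0. By edgeR 0 of these 10 passed, and 5 were higher at an unadjusted p under 0.05. DESeq2 passed 2, voom 5 and edgeR without control 4 called 6, all higher. The sum of 7 cholangiocyte markers, which shares Spp1 with the macrophage list, was 36.6 to 40.6 CPM in the other controls, 174 in control 4, 231 in LKO 5 and 383 in LKO 3. In LKO 1, LKO 2 and LKO 4 it was 40.7, 61.6 and 51.8 CPM. LKO 3 and LKO 5 were also the 2 highest LKO libraries for 8 of the 10 genes, all but Mmp12 and Mmp13. On the first principal component of all genes they were again the 2 highest, at 82.3 and 39.9, so this order is not particular to the 10. The share of all genes with this order was not counted. Epcam, an epithelial marker of bile ducts, had 18.2 CPM in LKO 3 and 10.04 CPM in LKO 5 against 0.754 to 1.45 CPM in the other LKO libraries. Of the 7 cholangiocyte markers, Cftr was at 0 in at least 1 library. None of them passed by edgeR, DESeq2 or voom with all libraries. At an unadjusted p under 0.05 by edgeR 4 were higher, and edgeR without control 4 called 1 as higher.

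The sum of 8 hepatocyte markers was 63143 to 70168 CPM in the other controls, 41405 in control 4 and 36334 (LKO 5) to 53769 (LKO 4) in LKO. By edgeR 0 of these 8 passed, with 2 lower at an unadjusted p under 0.05. DESeq2 passed 1, voom 3 and edgeR without control 4 called 2, all lower. Endothelial markers summed to 391 to 461 CPM in control and 393 to 614 in LKO, with control 4 (395) and LKO 3 (393) among the lowest. By edgeR 0 of 8 endothelial markers passed, and 4 were higher at an unadjusted p under 0.05. DESeq2 passed 3, voom 4 and edgeR without control 4 called 3, all higher. Neutrophil markers, a list that holds Mmp8 and Mmp9, summed to 3.64 to 9.67 CPM in control and 7.07 to 13.03 in LKO. Ly6g was at 0 in at least 1 library. Of 5 tested (of 7) neutrophil markers 0 passed by edgeR, and 4 were higher at an unadjusted p under 0.05. DESeq2 passed 2, voom 3 and edgeR without control 4 called 4, all higher. The part of any of these cell types in the values of the 10 genes was not tested.

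Levels of different genes were compared as CPM per kilobase of exon, with exon lengths from GENCODE M21. In control, Timp3 was the most abundant at 11.3 ± 1.82 CPM per kilobase (SD, n = 5), followed by Mmp14 at 4.44 ± 1.77, Mmp12 at 3.77 ± 6.11, Timp2 at 2.67 ± 1.01, Loxl2 at 1.98 ± 0.649 and Mmp2 at 1.19 ± 0.705. Below them came Timp1 at 0.842 ± 1.26, Loxl1 at 0.719 ± 0.585, Mmp13 at 0.611 ± 0.657 and Lox at 0.145 ± 0.184 CPM per kilobase. Timp3 and Mmp14, and Loxl2 and Mmp2, differed by more than the larger of their SDs, and the other neighbours in that order did not. The places of Mmp12 and Timp1 rested on control 4. Without it Mmp12 had 1.05 ± 0.777 CPM per kilobase (SD, n = 4) and came after Timp2 (2.23 ± 0.328) and Loxl2 (1.72 ± 0.375). Mmp2 then had 0.893, Loxl1 0.459, Mmp13 0.327, Timp1 0.281 and Lox 0.0629 CPM per kilobase. In LKO, Timp3 (16.6 ± 5.41) was again highest and Lox (0.525 ± 0.516) again lowest, and Mmp12 stood second at 10.8 ± 3.16 CPM per kilobase. Mmp14 (6.92 ± 1.72), Timp2 (4.82 ± 2.89), Mmp2 (3.70 ± 3.61), Loxl2 (3.58 ± 0.923) and Timp1 (3.51 ± 2.53) followed. Loxl1 had 1.83 ± 1.72 and Mmp13 1.47 ± 0.426 CPM per kilobase. There, Timp3 and Mmp12, Mmp12 and Mmp14, and Mmp13 and Lox differed by more than the larger SD, and the other neighbours did not.

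**Figure D4:**
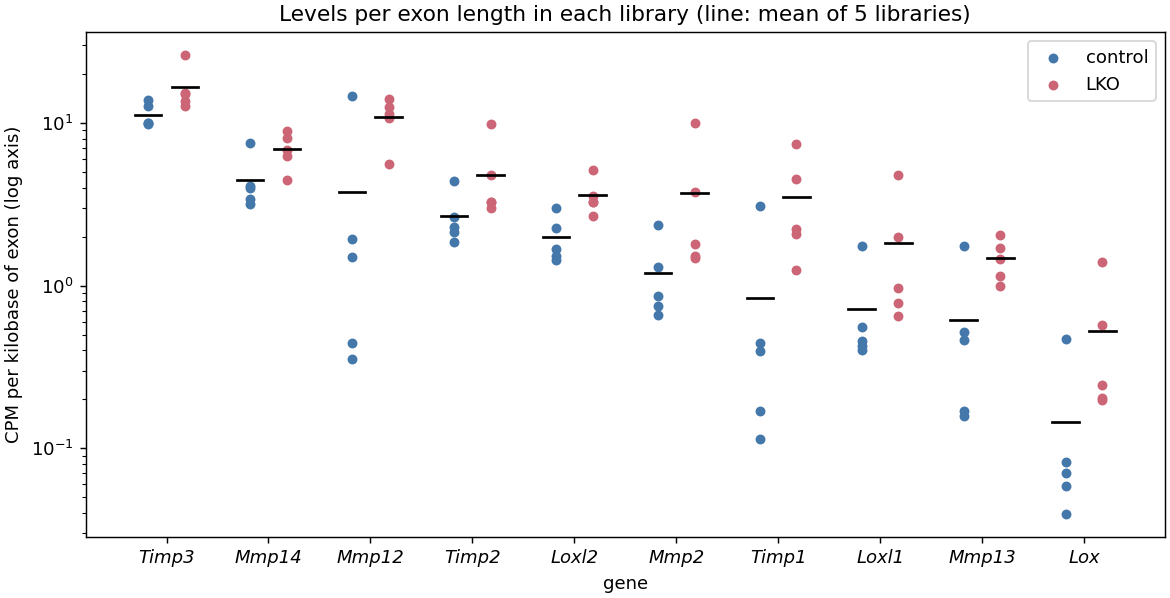
CPM per kilobase of exon (log axis) of each gene in every control (blue) and LKO (red) library, with a line at the mean of 5 libraries, ordered by the control mean. Timp3 is highest and Lox lowest in both groups, and the single high blue point of Mmp12 is control 4.

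Ratios within a library show how inhibitor and protease transcripts stood to each other, since gene length cancels when libraries are compared. The log2 ratio of Timp1 to Mmp14 CPM was -6.47, -5.60, -7.14, -3.52 and -5.40 in controls 1 to 5 and -4.09, -3.95, -2.50, -3.73 and -3.07 in LKO 1 to 5. All LKO libraries lay above controls 1, 2, 3 and 5, and control 4 lay among them. Timp1 had 4, 10, 3 and 17 counts in controls 1, 2, 3 and 5, so those ratios are imprecise. The log2 ratio of Mmp14 to Mmp2 averaged 2.44 ± 0.42 in control and 1.74 ± 0.89 in LKO (SD, n = 5), where LKO 3 stood at 0.29 and the other LKO libraries at 1.55 to 2.49. The log2 ratio of Timp2 to Mmp2, partners in pro-MMP2 activation, was lower on average in LKO, at 1.54 ± 0.47 in control and 0.92 ± 0.48 in LKO (SD, n = 5), with LKO 3 lowest at 0.25 and the groups overlapping. These ratios are descriptions with no test.

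RefSeq start windows (build GRCm38.p6, 250 bases before to 50 after an annotated start) were at hand for 6 members, with 7 windows in all, 2 of them for Mmp12. Lox, Loxl1, Loxl2 and Mmp2 were not matched. Several metalloproteinase genes are textbook targets of AP-1, the Fos and Jun factor, through a site near a TATA box, so the windows were searched on both strands for the AP-1 letters TGANTCA, the TATA box TATAAA and the GC box GGGCGG. AP-1 letters occurred in 7.81% of all 32851 windows of 300 bases, TATAAA in 13.6% and GGGCGG in 35.7%. Among the members, Mmp13 and 1 of the Mmp12 starts held both AP-1 letters and TATAAA and no GC box. The other Mmp12 start held none of the 3 motifs, while Timp1, Timp2, Timp3 and Mmp14 held GC boxes alone among the 3. Only exact letters were searched, so variant AP-1 sites would be missed. The Timp1 window holds the near match TGAGTAA after its start, outside the stretch printed below. Other near matches were not counted. The palindromic AP-1 match reads on both strands and is counted once, and no matches of different motifs overlapped. G and C made up 40.7% of that Mmp12 window and 43.7% of the Mmp13 window, against 55% (Timp1) to 68.7% (Timp2) in the windows with GC boxes. The 100 bases before the start are shown for 2 genes with exact AP-1 letters and 2 genes with GC boxes, with motif letters in capitals.
Mmp12 (chr9:7347274-7347373, plus strand): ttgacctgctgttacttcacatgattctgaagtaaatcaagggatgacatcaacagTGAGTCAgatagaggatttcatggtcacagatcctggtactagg
Mmp13 (chr9:7272414-7272513, plus strand): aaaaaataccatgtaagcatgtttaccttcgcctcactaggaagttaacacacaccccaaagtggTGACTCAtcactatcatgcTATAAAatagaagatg
Mmp14 (chr14:54431498-54431597, plus strand): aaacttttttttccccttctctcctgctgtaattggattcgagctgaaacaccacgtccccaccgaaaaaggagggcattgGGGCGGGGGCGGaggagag
Timp1 (chrX:20870066-20870165, plus strand): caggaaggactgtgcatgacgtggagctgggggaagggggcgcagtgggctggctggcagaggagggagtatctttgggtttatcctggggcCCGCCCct
The AP-1 letters began 44 bases before the Mmp12 start and 35 bases before the Mmp13 start. TATAAA began 16 bases before the Mmp13 start and 4 bases after that of Mmp12, outside the printed stretch. These matches describe letters and show no binding. The AP-1 subunit genes are given below with the other pathway genes.

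Other genes of matrix remodelling came from lists that hold none of the 10, and in each of them 0 genes passed by edgeR with all libraries. Without control 4 edgeR called genes in all of them but the AP-1 list, and those counts are given with each list. Over all genes that fit called 1568 as higher and 728 as lower of 15327. DESeq2 called 634 and 552 of 15226, and voom 1530 and 930. At an unadjusted p under 0.05 by edgeR the shares were 12.8% and 9.5%. Among 14 tested (of 16) enzymes and partners of collagen cross-linking and folding, 4 had an unadjusted p under 0.05 as higher and 1 as lower, with a median log2 fold change of 0.29. DESeq2 passed 1 as higher and 1 as lower, voom 2 and 1, and edgeR without control 4 called 4 and 1. Serpinh1, which encodes the collagen chaperone HSP47, averaged 11.7 ± 3.94 CPM in controls and 27.9 ± 15.9 CPM in LKO (log2 fold change 1.25, SE 0.34, edgeR adjusted p = 0.11). Loxl3, another lysyl oxidase gene, stood at 0.79 and Bmp1, of procollagen processing, at -0.33.

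Of 17 other metalloproteinase genes only 7 had enough counts to test, with a median of 0.74. At an unadjusted p under 0.05, 3 were higher and 1 lower. DESeq2 passed 0 as higher and 1 as lower, voom 3 and 1, and edgeR without control 4 called 2 and 1. Mmp19 went against the members, at 56.5, 58.0, 56.3, 39.9 and 57.1 CPM in controls 1 to 5 and 41.7, 39.7, 30.9, 42.2 and 37.5 CPM in LKO 1 to 5. Control 4 again lay among the LKO libraries (log2 fold change -0.48, SE 0.12, edgeR adjusted p = 0.101; -0.57 and adjusted p = 0.008 without control 4). Mmp23 and Mmp24 stood at 0.996 and 0.99. Of 6 other inhibitors 4 were tested, with a median of -0.21 and 1 lower at an unadjusted p under 0.05, by DESeq2, by voom and by edgeR without control 4. Pzp, which encodes a protease-trapping macroglobulin of hepatocytes, had 4615 ± 948 and 3201 ± 252 CPM (log2 fold change -0.53, edgeR adjusted p = 0.141). Reck, which encodes a membrane-anchored inhibitor, stood at -0.43 and Spock2 at 0.41.

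ADAM and ADAMTS genes, of the related adamalysin families, had a median of 0.75 over 18 tested of 19, with 9 higher and 0 lower at an unadjusted p under 0.05. DESeq2 passed 1, voom 7 and edgeR without control 4 called 8, all higher. The median was 0.48 without LKO 3. Adamts2, which trims procollagen ends, stood at 1.19, Adamts15 at 1.12 and Adam15 at 0.91, with edgeR adjusted p-values from 0.152 to 0.155.

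The plasminogen system, whose protease plasmin activates several metalloproteinases, had values in both directions. Of 8 tested genes in a list of 9, 4 were higher and 3 lower at an unadjusted p under 0.05, with a median of 0.24. DESeq2 passed 4 and 2, voom 4 and 3, and edgeR without control 4 called 4 and 3. The median was 0.56 without control 4 and 0.07 without LKO 3. Plau, which encodes the urokinase activator, had 2.83, 1.83, 2.16, 3.74 and 1.86 CPM in controls 1 to 5 and 5.37, 5.41, 8.10, 4.38 and 5.53 CPM in LKO 1 to 5. Its groups did not overlap, control 4 included (log2 fold change 1.21, SE 0.23, edgeR adjusted p = 0.0766). Plat, of the tissue-type activator, stood at 2.32 (1.49 without LKO 3). Serpine2, of a serpin inhibitor of both activators, stood at -1.09 (SE 0.29, edgeR adjusted p = 0.108).

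Of 10 cathepsin and cystatin genes 5 were higher and 0 lower at an unadjusted p under 0.05, with a median of 0.23. DESeq2 passed 2, voom 3 and edgeR without control 4 called 3 as higher. Ctsd, of lysosomal cathepsin D, had 282 ± 42.6 and 389 ± 39.7 CPM (log2 fold change 0.47, edgeR adjusted p = 0.106), the cystatin B gene Cstb stood at 0.70 and Ctsk, of the collagen-cutting cathepsin K, at 1.42. Among 13 substrate genes of collagens, elastic fibres and fibronectin, 8 were higher and 1 lower at an unadjusted p under 0.05, with a median of 1.20. DESeq2 passed 2 and 1, voom 10 and 1, and edgeR without control 4 called 10 and 1. The median was 1.61 without control 4 and 0.66 without LKO 3. Col4a1 and Col4a2, chains of the collagen IV that LOXL2 cross-links, stood at 1.04 and 0.75 (edgeR adjusted p = 0.108 and 0.137). Fn1, of fibronectin, stood at -0.70, from 2421 ± 163 to 1488 ± 212 CPM, and its groups did not overlap (edgeR adjusted p = 0.0766).

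Convertases and receptors of the pathway had a median of 0.03 over 10 tested, with 1 higher and 1 lower at an unadjusted p under 0.05. DESeq2 passed 0, voom 2 and edgeR without control 4 called 2 as higher. Cd63 was 1 of the 2 in each case, and the recruited macrophage list also holds it. The median was 0.02 without control 4. Cd44, of a hyaluronan receptor that docks metalloproteinases at the cell surface, stood at 0.74, Lrp1, of an endocytic receptor that clears protease complexes, at -0.33 and Pcsk7 at -0.17. Of 5 tested (of 7) AP-1 subunit genes 2 were higher and 0 lower at an unadjusted p under 0.05, with a median of 0.37. DESeq2 passed 1, voom 2 and edgeR without control 4 called 0 as higher. The median was 0.24 without LKO 3. The control libraries ran from 8.03 to 13.1 CPM of Fosl2 and the LKO libraries from 13.5 to 23.9 CPM, with no overlap (log2 fold change 0.59, SE 0.18, edgeR adjusted p = 0.126). Jund stood at 0.38 and Fos at 0.37.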

How the data were processed

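Liver RNA of 10 mice was measured by RNA sequencing. Ribosomal RNA was removed and stranded libraries were read for 101 cycles from 1 end, per the labels' protocols. The deposited table holds whole-number counts per gene, not normalized, keyed by NCBI Gene number. Build GRCm39, bcl2fastq 2.20 and DESeq2 stand in the submitters' processing notes. No source used here names the aligner, the counter, its strand setting or its annotation. Timp1, Timp2 and Timp3 share their loci with Syn1, Cep295nl and Syn3, which held 493, 181 and 2635 counts over the 10 libraries, so reads there may be divided differently by another counter.

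All 10 columns were matched to samples by title and 0 were left unused. Symbols came from a RefSeq table built on GRCm38.p6, from which only names, neighbours and start windows were taken (25275 of 27179 genes matched). Genes were filtered with filterByExpr and scaled with TMM, and genotype was tested in R 4.3.3 with edgeR 4.0.16 (quasi-likelihood F test, legacy option, two-sided, Benjamini-Hochberg over 15226 genes, threshold 0.05). The adjusted p-values named edgeR come from that fit. Distances used log2 CPM with a prior count of 2. The 95% intervals follow from the fold change and its standard error. Counts set the precision: 3 counts, the floor for a gene at 0, equal 0.0698 CPM (control 5) to 0.113 CPM (control 1), counting error only.

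Alternatives were other scalings and filters, DESeq2 1.42.0, limma 3.58.1 voom with quality weights, a block for the replicate number, a title code term, and leaving out libraries. Libraries of a group differed by more than sampling noise (lowest chi-square per degree of freedom 32.1). Tests were checked on simulated counts. Members, lists, alternatives and the naming rule (all members, Lpcat3, up to 3 genes of smallest p per list and the 2 nearest patterns per member) were chosen with earlier results of these data known. Genes named outside it were chosen after their values were seen: the markers Gpnmb and Epcam, and those under other observations. Protein sequences were not used here. Figures were drawn with matplotlib 3.10.9.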

Additional observations from a re-analysis of the deposited data

Results flagged for a closer look

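A library was singled out where its gap to the nearest library of its group exceeded 0.71 of the group's range (Dixon's test at 5 samples). Chance gives this in about 1 of 20 groups if values are normally distributed. The CPM used were not log-transformed, so that rate need not hold here. Of 20 groups of the 10 members, 9 had such a library, 6 times control 4 and 3 times LKO 3. Control 4 was high for Lox (gap 0.9 of the range), Loxl1 (0.886), Timp1 (0.888), Mmp12 (0.89), Mmp13 (0.774) and Mmp14 (0.798). LKO 3 was high for Timp2 (0.738), Timp3 (0.808) and Mmp2 (0.73). The flags of members are not independent, since the same 2 libraries recur.

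Over all 38 genes checked, 17 of 76 groups had such a library, 12 times control 4 and 5 times LKO 3. Control 4 was high for Adamts15 (0.771), Adamts2 (0.831), Adam15 (0.846), Cstb (0.894) and Cd44 (0.754), and low for Mmp19 (0.902), at 39.9 CPM against 56.3 to 58.0 CPM in the other controls. LKO 3 was high for Loxl3 (0.775) and Fos (0.762). No cause of these values was tested.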

How the results depend on the processing

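All 209 fold changes of members under the 21 alternatives kept their direction, from 0.33 to 4.35, and 26 of them passed the threshold. The number of all genes called was 10, and 31 with no filter, 20 with at least 1 CPM in 5 libraries (Lox was not tested there), 1186 by DESeq2, 2460 by voom, 2363 without control 4 and LKO 3, 0 with the title code as a covariate and 2 to 2296 with 1 library left out (2296 without control 4, 86 without LKO 1). Members called were 0, but 2 by DESeq2 (Loxl2 and Mmp2), 7 by voom (all but Loxl1, Timp2 and Mmp2), 9 without control 4 and LKO 3 and 0 to 8 with 1 library left out (8 without control 4). With the title code, Lpcat3 had a log2 fold change of -1.99 (edgeR adjusted p = 0.0565). Scaling to total counts moved the median of all genes to 0.24. Timp3, the lowest member, then stood at 0.82. The causes were not tested. The replicate number as a block called 2 genes and 0 members. Same-numbered deviations correlated from -0.40 to 0.42, over 0.1 in 2 of 5 pairs, so the numbers were not read as pairs, and 1 of 5 controls was closest to its own number. Low counts limit Lox and Timp1 most.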

Other observations

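A few other matrix protease genes were chosen after their values were seen, and in each of them control 4 was the highest control. Mmp15, which encodes another membrane-type metalloproteinase, had 87.6 CPM in control 4, 23.8 to 39.3 CPM in the other controls and 24.3 to 53.1 CPM in LKO, so control 4 lay beyond all LKO libraries. Plaur, which encodes the urokinase receptor, had 0.457 to 0.607 CPM in controls 1, 2, 3 and 5, 2.13 CPM in control 4 and 0.848 to 3.42 CPM in LKO (log2 fold change 1.56, SE 0.49, edgeR adjusted p = 0.134). Mmp9, which encodes gelatinase B, had 0.202 to 0.386 CPM in those 4 controls, 1.13 CPM in control 4 and 0.565 to 1.35 CPM in LKO (log2 fold change 0.89, SE 0.43, edgeR adjusted p = 0.239).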
